A study of Mus musculus with 2 samples.

Results

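Tetraspanins are small proteins that cross the membrane several times and gather integrins, proteases and immune receptors into patches of the cell surface and of vesicles. Microglia, the resident macrophages of nervous tissue, carry tetraspanins restricted to leukocytes together with broadly expressed ones that also serve late endosomes and exosomes. The 10 genes described here, *Cd9*, *Cd63*, *Cd81*, *Cd53*, *Cd82*, *Cd37*, *Cd151*, *Tspan3*, *Tspan4* and *Tspan7*, were chosen by name as the tetraspanins of microglia, and all 10 were among the 13549 genes of the deposited count table. *Cd37* and *Cd53* were taken as the 2 leukocyte-restricted members and the remaining 8 as broadly expressed.

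Both libraries came from mouse retina at postnatal day 5, from animals of genotype CD11c-Cre-gfp;Rosa-TDTom, in which the CD11c promoter drives a Cre-GFP and Cre permanently switches on a TdTomato reporter. CD11c is the integrin subunit encoded by *Itgax*. Cd11c-active cells carried GFP and TdTomato (4041 cells), and Cd11c-lineage cells carried TdTomato without GFP (5441 cells), and both came out of the same 8 retinas. The labels add 4 of either sex without saying whether these numbers count retinas or animals. Each group gave 1 library of bulk RNA. The comparison has no replicate check, no p-value is given, and every difference below is one between these 2 libraries.

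The Cd11c-active library held 12943998 reads and the Cd11c-lineage library 13402625. A ratio always divides Cd11c-active by Cd11c-lineage, with TMM scaling. Under TMM the median log2 ratio of the 13037 genes with at least 20 reads was 0.01, against -0.13 under library totals. Intervals in parentheses are 95% intervals that cover counting error only, and without molecular identifiers several reads can stem from 1 molecule. The spread between the libraries was larger than these intervals, so each member was also set beside the 500 genes nearest to it in summed reads. Their robust SD, from the median absolute deviation of the log2 ratio, is called the spread of like-abundant genes. *Itgax* itself had 2409 and 1698 reads, a log2 ratio of 0.69 with a spread of 0.46. The microglial identity of the material was visible in both libraries: the 8 listed microglial markers summed to 19173 CPM (reads scaled to a common library size) in Cd11c-active and 17700 CPM in Cd11c-lineage, and *Csf1r*, the receptor that microglia need to survive, had 79075 and 92452 reads.

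Among the 10 tetraspanins, *Cd151* was the member past 2-fold, higher in Cd11c-active, and the other 9 were not past 2-fold in either direction. Of all genes with at least 20 reads, 44.9% were past 2-fold, 23.3% higher and 21.6% lower in Cd11c-active. Of genes with at least 1000 reads the share was 9.57%, with 5.43% higher and 4.14% lower, and 0 of the 9 members that reached 1000 reads were past it. In 8 of the 10 members the ratio was above 0 and in 2, *Cd53* and *Tspan4*, below 0, against 50.2% of all tested genes above 0. The median log2 ratio of the 10 was 0.31. It was 0.17 under library totals, where that of all tested genes was -0.13, and 0.19 scaled to the summed microglial markers, where that of all tested genes was -0.11. Once a trend of the ratio with transcript length and GC was taken out it was 0.11, with 7 members above and 3 below 0 and all tested genes at -0.01. In 8 of the 10 the ratio was smaller than the spread of like-abundant genes, the exceptions being *Cd151* and *Cd9*.

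**Figure D1:**
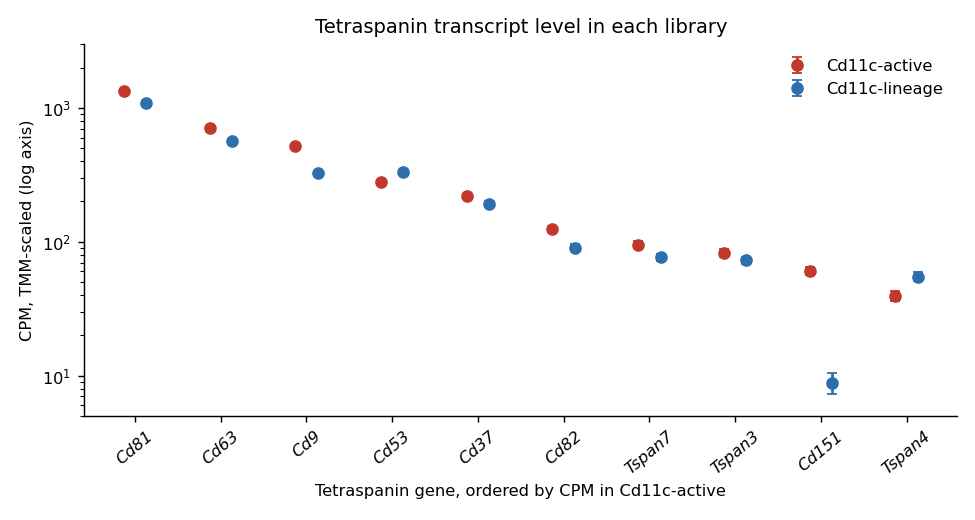
TMM-scaled CPM of the 10 tetraspanins (log axis) in the Cd11c-active and the Cd11c-lineage library, 1 point per library, with exact Poisson 95% intervals that are often smaller than the point. Cd81 is highest in both libraries (1344 and 1093 CPM), Cd53 and Tspan4 are lower in Cd11c-active, and Cd151 shows the widest gap (60.6 against 8.75 CPM).

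The leukocyte-restricted members differed in direction. *Cd53* (ENSMUSG00000040747), a tetraspanin of lymphoid and myeloid cells, had 3428 reads in Cd11c-active against 4695 in Cd11c-lineage, equal to 277.6 and 334.1 CPM. It was thus lower in Cd11c-active, with a log2 ratio of -0.27 (-0.33 to -0.20), and 48.8% of its 500 like-abundant genes had a ratio at least as far from 0. *Cd37* (ENSMUSG00000030798), best known from B cells and also expressed by myeloid cells, had 2694 and 2711 reads, or 218.2 and 192.9 CPM. Its log2 ratio was 0.18 (0.10 to 0.25), and 68.4% of like-abundant genes were as far from 0. The sign of *Cd37* turned to -0.04 once the trend with length and GC was taken out. For neither gene was the difference larger than the spread of like-abundant genes, 0.38 for *Cd53* and 0.44 for *Cd37*.

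Markers of other leukocytes that carry these 2 genes had few reads. Of 4 B cell genes, 2 were listed: *Cd79a* with 55 and 1 reads and *Cd79b* with 141 and 184, together 15.9 and 13.2 CPM. Of 3 T cell genes 0 were listed. The 3 listed monocyte and neutrophil genes summed to 35 and 106 reads, with *S100a8* and *S100a9* at 0 in Cd11c-active and *Ccr2* at 0 in Cd11c-lineage.

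Among the broadly expressed members, those with the most reads were *Cd81*, *Cd63* and *Cd9*. *Cd81* (ENSMUSG00000037706), a partner of integrins and immune receptors, had 16588 and 15362 reads, or 1344 and 1093 CPM. Its log2 ratio was 0.30 (0.27 to 0.33), and 40.6% of like-abundant genes were as far from 0. *Cd63* (ENSMUSG00000025351), the tetraspanin of late endosomes, lysosomes and exosomes, had 8788 and 7972 reads, or 711.8 and 567.4 CPM. Its log2 ratio was 0.33 (0.28 to 0.37), and 35.6% of like-abundant genes were as far from 0. Both genes were higher in Cd11c-active by less than the spread of like-abundant genes, which was 0.36 for each. Their lowest values over the alternatives were 0.10 for *Cd81* and 0.12 for *Cd63*. *Cd81* overlaps the noncoding gene *R74862* in RefSeq (130 and 27 reads), and reads there may be shared. A processed pseudogene copy, *Cd63-ps*, was listed with 8 reads in each library.

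*Cd9* (ENSMUSG00000030342), which controls cell fusion and adhesion and is a known marker of disease-associated microglia, had 6357 and 4592 reads, or 514.9 and 326.8 CPM. It was 1.58-fold higher in Cd11c-active, a log2 ratio of 0.66 (0.60 to 0.71). Among its 500 like-abundant genes 6.80% had a ratio at least as far from 0, and the spread was 0.38. Of the 9 members with at least 1000 reads, *Cd9* was the farthest from 0 under TMM, while *Tspan4* was farther under library totals (-0.61 against 0.52), scaled to the microglial markers (-0.59 against 0.54) and without the length and GC trend (-0.85 against 0.44), where *Tspan7* (0.55) was too. Vessel markers were also higher in Cd11c-active, with endothelial genes at 711.1 against 73.7 CPM in sum. The *Cd9* ratio was below the 2-fold line and ranged from 0.44 to 0.66 over all alternatives. The ratio of *Itgax* was 0.69. The 8 microglial markers had a median of 0.06, with 4 above and 4 below 0, from *P2ry12* at -0.36 to *C1qa* at 0.59.

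*Cd82* (ENSMUSG00000027215), a tetraspanin that restrains cell migration, had 1549 and 1273 reads, or 125.5 and 90.6 CPM, and a log2 ratio of 0.47 (0.36 to 0.58). It overlaps the microRNA gene *Mir7001* in RefSeq (42 and 0 reads), and reads there may be shared. *Tspan7* (ENSMUSG00000058254), known from neurons and their synapses, had 1178 and 1077 reads and a ratio of 0.32 (0.20 to 0.44). *Tspan3* (ENSMUSG00000032324) had 1017 and 1022 reads and a ratio of 0.18 (0.05 to 0.31). These 3 genes were above 0, with spreads of like-abundant genes of 0.55, 0.59 and 0.61, and their lowest values over the alternatives were 0.21, 0.18 and 0.04. *Tspan4* (ENSMUSG00000025511), a component of the migrasomes that moving cells leave behind, had 488 reads in Cd11c-active against 772 in Cd11c-lineage. It was the lowest of the 10 at -0.47 (-0.64 to -0.31), within its spread of 0.71, and 52.0% of like-abundant genes were as far from 0. Part of *Tspan4* overlaps the coding gene *Chid1* (216 and 208 reads) in RefSeq, and reads there may be shared.

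**Figure D2:**
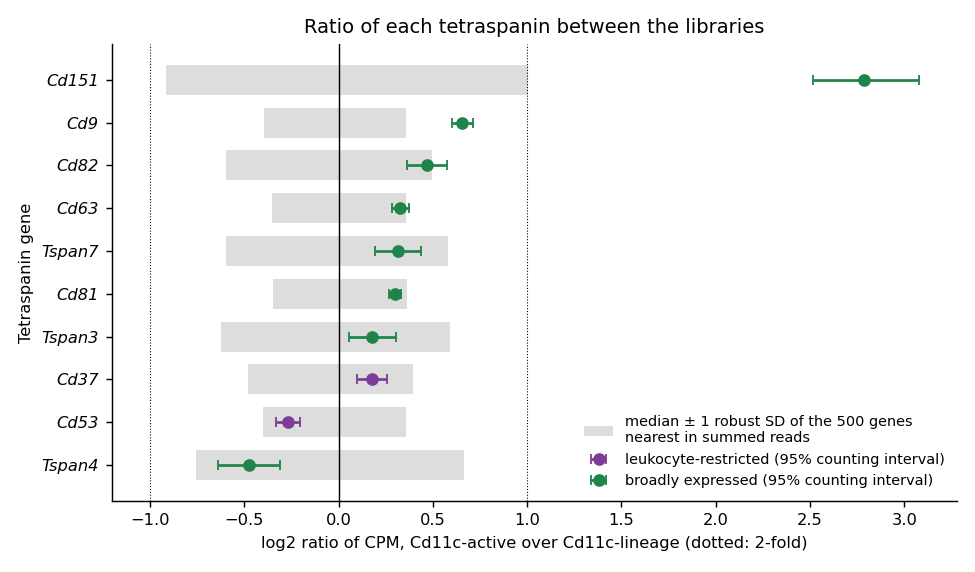
Log2 ratio of CPM, Cd11c-active over Cd11c-lineage, for each of the 10 tetraspanins with exact 95% counting intervals, over grey bars that give the median ± 1 robust SD of the 500 genes nearest in summed reads. Cd151 (2.79) and Cd9 (0.66) lie clearly outside their bars, and Cd151 alone passes the dotted 2-fold line.

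*Cd151* (ENSMUSG00000025510), the tetraspanin that binds laminin-receptor integrins and is abundant in endothelium, had 748 reads in Cd11c-active against 123 in Cd11c-lineage, equal to 60.6 and 8.75 CPM. It was 6.90-fold higher in Cd11c-active (5.71 to 8.44), a log2 ratio of 2.79 (2.51 to 3.08). The spread of like-abundant genes was 0.96, and 1.80% of them were as far from 0. Its ratio stayed between 2.55 and 2.79 in each alternative that kept it among the tested genes. With 871 reads in all it fell short of the stricter minimum of 1000.

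Endothelial and mural markers were higher in Cd11c-active, as *Cd151* was. All 8 listed endothelial genes were past 2-fold higher in Cd11c-active, and their sum was 711.1 CPM against 73.7 CPM. *Cldn5*, *Flt1*, *Tek*, *Esam* and *Vwf* had 0 reads in Cd11c-lineage. *Pecam1*, the endothelial gene with the most reads summed over both libraries, had 1725 and 523, a log2 ratio of 1.91. The VE-cadherin gene *Cdh5*, with 1719 and 201 reads, had a log2 ratio of 3.28, and the VEGF receptor gene *Kdr*, with 1926 and 311 reads, one of 2.82. The 4 listed mural genes, *Pdgfrb*, *Rgs5*, *Cspg4* and *Kcnj8*, summed to 737 reads in Cd11c-active, against 0 in Cd11c-lineage. The part of vessel cells in the ratios of *Cd151*, *Cd9* and the other broadly expressed members was not tested. In bulk RNA, fewer cells of a type and less RNA per cell cannot be told apart.

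Of the listed markers of retinal neurons and border macrophages, all but *Rbpms* (325 and 126 reads) were lower in Cd11c-active. The 9 listed neuronal genes summed to 75.0 CPM in Cd11c-active and 184.5 CPM in Cd11c-lineage. *Pdc* was at 0 in Cd11c-active, and *Nrl*, the one with the most reads summed over both libraries, had 311 and 415 reads. *Prph2* and *Rom1*, tetraspanins of photoreceptor discs outside that list, were above 0 at 1.90 and 0.57, with 136 and 41 reads and 77 and 59 reads. The 4 listed border macrophage genes summed to 21.2 and 127.7 CPM, with *Mrc1* at 262 and 1230 reads (log2 ratio -2.04) and *Lyve1*, *Cd163* and *F13a1* at 0 in Cd11c-active. The 4 listed Muller glia and astrocyte genes summed to 2266 and 2416 CPM, of which *Glul*, which macrophages also express, gave 2249 and 2369. The other 3 differed in direction, with 94 and 0 reads for *Rlbp1*, 73 and 642 for *Slc1a3* and 43 and 18 for *Sox9*. The part of these cells in the ratios of *Tspan7*, *Tspan4* and *Cd53* was not tested.

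**Figure D3:**
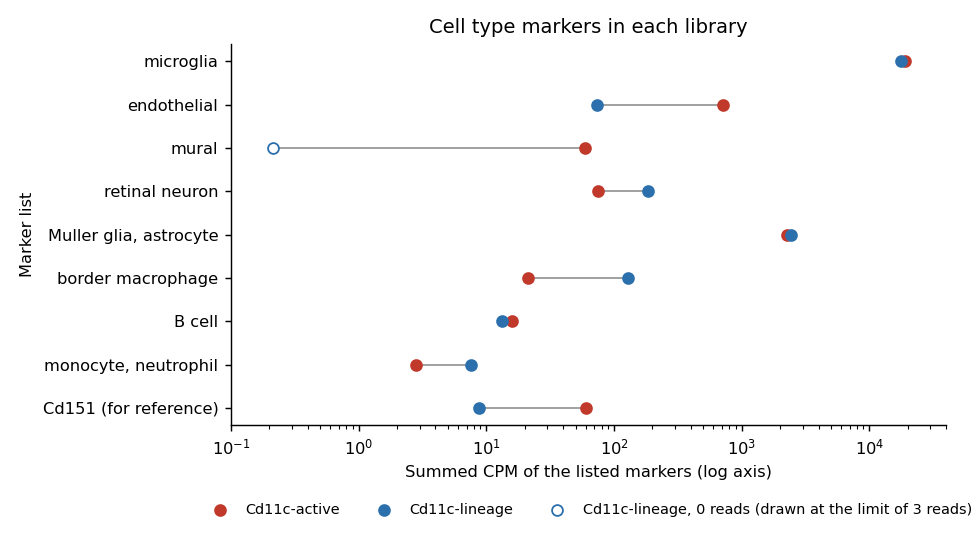
Summed TMM-scaled CPM of 8 cell type marker lists (log axis) in the Cd11c-active and the Cd11c-lineage library, with Cd151 as a reference. Microglial markers are near equal, endothelial (711.1 against 73.7 CPM) and mural markers are higher in Cd11c-active, and neuronal and border macrophage markers are higher in Cd11c-lineage; the open point marks 0 reads, drawn at the 0.214 CPM that 3 reads give.

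Summed over the members, the leukocyte-restricted pair had 6122 and 7406 reads, a log2 ratio of -0.09 (-0.14 to -0.04), and the 8 broadly expressed members 36713 and 32193 reads, a ratio of 0.38 (0.35 to 0.40). The difference between the sums was 0.46 on the log2 scale, and a library scaling factor cancels in it by construction. It was 0.40 once the length and GC trend was taken out, and 0.20 when *Cd37* alone stood for the leukocyte-restricted pair. *Cd37* lay at nearly the same ratio as *Tspan3*, and *Tspan4* lay below *Cd53*, so the ratios of the sets overlapped. Without *Cd151* the broadly expressed sum was 0.35 (0.33 to 0.37). Endothelial markers (711.1 against 73.7 CPM) and mural markers (59.7 against 0 CPM) were higher in the same library as the broadly expressed sum, and their part in it and in its gap to the leukocyte-restricted pair was not tested.

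Each member's share of all reads on the 10 genes does not depend on library scaling. *Cd81* took 38.7% of them in Cd11c-active (Wilson 95% interval 38.3 to 39.2) and 38.8% in Cd11c-lineage (38.3 to 39.3). *Cd63* took 20.5% and 20.1%. *Cd9* took 14.8% (14.5 to 15.2) and 11.6% (11.3 to 11.9), and *Cd53* took 8.00% (7.75 to 8.26) and 11.9% (11.5 to 12.2). The shares of *Cd81* and *Cd63* thus overlapped within counting error between the libraries, while *Cd9* and *Cd53* had near equal shares in Cd11c-lineage and unequal ones in Cd11c-active. *Cd151* took 1.75% and 0.311%.

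Levels were compared between genes as RPKM, the CPM divided by the kilobases of exon. *Cd81* was highest in both libraries (876.4 RPKM in Cd11c-active and 713.2 in Cd11c-lineage), followed by *Cd63* (490.9 and 391.3), *Cd9* (419.3 and 266.1) and *Cd53* (159.4 and 191.8). *Cd82* and *Cd37* followed at 64.9 and 62.1 RPKM in Cd11c-active, and their order was reversed in Cd11c-lineage at 46.9 and 55.0 RPKM. *Tspan3* had 45.6 and 40.2 RPKM. *Tspan4* had 25.6 and 35.6 RPKM, and *Tspan7*, whose exons span 7067 bases, had 13.5 and 10.8. *Cd151* ranked 8 of 10 in Cd11c-active (31.2 RPKM) and last in Cd11c-lineage (4.51).

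The order of levels was largely shared. Of the 45 pairs of members, 3 changed order between the libraries: *Cd82* with *Cd37*, and *Cd151* with *Tspan4* and with *Tspan7*. In 36 pairs the order was the same in both libraries and both differences in log2 RPKM exceeded the spread per library, taken from the like-abundant genes of the pair. That spread comes from ratios between the libraries, so it leaves out errors of exon length and GC that both libraries share. It does not measure how surely 2 genes differ within a library. *Tspan7* had more CPM than *Tspan3* in Cd11c-active (95.4 against 82.4) but a lower RPKM. Neighbours in the order of Cd11c-active that did not differ beyond that spread in both libraries were *Cd63* with *Cd9*, *Cd82* with *Cd37*, *Cd37* with *Tspan3*, *Tspan3* with *Cd151*, and *Cd151* with *Tspan4*.

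*Cd151* and *Tspan4* lie on the same chromosome with 1 coding gene between them in RefSeq, and had log2 ratios of 2.79 and -0.47. The bases upstream of *Cd53*, the lower leukocyte-restricted member, and of *Cd151*, the member past 2-fold, are shown to set a leukocyte-restricted promoter beside a broadly active one. They are the 120 bases before the RefSeq transcription start on the gene's own strand, 5′ to 3′, in build GRCm38.p6: chr3:106790150-106790269 (minus strand) for *Cd53* and chr7:141467242-141467361 (plus strand) for *Cd151*. For *Cd151*, which has 2 starts in that table, the upstream one was taken. Capitals mark matches to GAGGAA, the core of sites bound by the myeloid factor PU.1, and to GGGCGG, the GC box, on either strand.
Cd53: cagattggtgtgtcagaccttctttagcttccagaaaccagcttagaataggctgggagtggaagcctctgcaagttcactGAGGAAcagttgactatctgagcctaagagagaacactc
Cd151: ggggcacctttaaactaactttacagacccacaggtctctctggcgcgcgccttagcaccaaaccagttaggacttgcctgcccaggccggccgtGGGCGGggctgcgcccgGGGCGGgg
In the 250 bases before the start, *Cd53* held 1 GAGGAA match, 0 GC boxes and 2 CpG dinucleotides, and *Cd151* held 0, 2 and 12. *Cd37* held 2 GAGGAA matches and 1 GC box. Among the broadly expressed members, *Cd63* was the one with GAGGAA (2 matches), and *Cd9*, *Cd81*, *Cd82*, *Tspan4* and *Tspan7* held 1 to 3 GC boxes, while *Tspan3* held neither. Of all 32817 RefSeq windows of this length, 23.3% held GAGGAA and 32.7% held GGGCGG on either strand. A match describes the letters and not a bound site, and TATAAA was found in 0 of the 10 windows, against 12.4% of all windows.

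The rest of the tetraspanin family was mostly sparser, and most of its listed genes had ratios above 0. Of 21 other tetraspanins 15 were listed, all with at least 20 reads. In 13 of them the ratio was above 0 and in 2 below 0, and these counts were the same under each scaling. Past 2-fold were 7 higher and 1 lower, 8 of 15, against 44.9% of all tested genes (23.3% higher and 21.6% lower), with a median log2 ratio of 0.97, also with genes at 0 set to the 3 reads that such a count allows. Those 8 had fewer than 1000 reads each, where 2-fold differences were common, and 0 of the 3 with at least 1000 reads were past 2-fold. *Tspan14*, one of the TspanC8 tetraspanins that carry the protease ADAM10 to the surface, had 3029 and 2442 reads and a ratio of 0.50 (0.42 to 0.57). *Tspan31* had 1075 and 670 reads (0.87), *Tspan5* 603 and 449 (0.61), *Tspan13* 651 and 327 (1.18), *Tspan9* 548 and 244 (1.35) and *Tspan18*, a direct coding neighbour of *Cd82* in RefSeq, 439 and 256 (0.96). Endothelial markers (711.1 against 73.7 CPM) and mural markers (59.7 against 0 CPM) were also higher in Cd11c-active. The part of vessel cells in the ratios of the 15 listed genes was not tested.

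Further family members are named after their values were seen. *Tspan2*, *Tspan6* and *Upk1b* had 209, 202 and 37 reads in Cd11c-active, against 0 in Cd11c-lineage. Against the 3 reads that a count of 0 allows, with the Cd11c-active reads taken as counted, they were at least 79.3-fold, 76.6-fold and 14.0-fold higher in Cd11c-active. With counting error in both libraries, their exact 95% intervals began at 63.9-fold, 61.8-fold and 10.9-fold. Both bounds leave out the wider spread between the libraries. Of like-abundant genes, 3.6% were as far from 0 as *Tspan2*, 5.2% as *Tspan6* and 30.4% as *Upk1b*. *Tspan32*, a leukocyte tetraspanin that in RefSeq is a direct coding neighbour of *Cd81*, had 162 and 415 reads and a ratio of -1.17 (-1.44 to -0.91), on the other side of 0 from *Cd81*. Among like-abundant genes 30.6% were as far from 0 as *Tspan32*. *Tspan12*, a coreceptor of Norrin signalling in retinal vessels, had 88 and 125 reads.

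**Figure D4:**
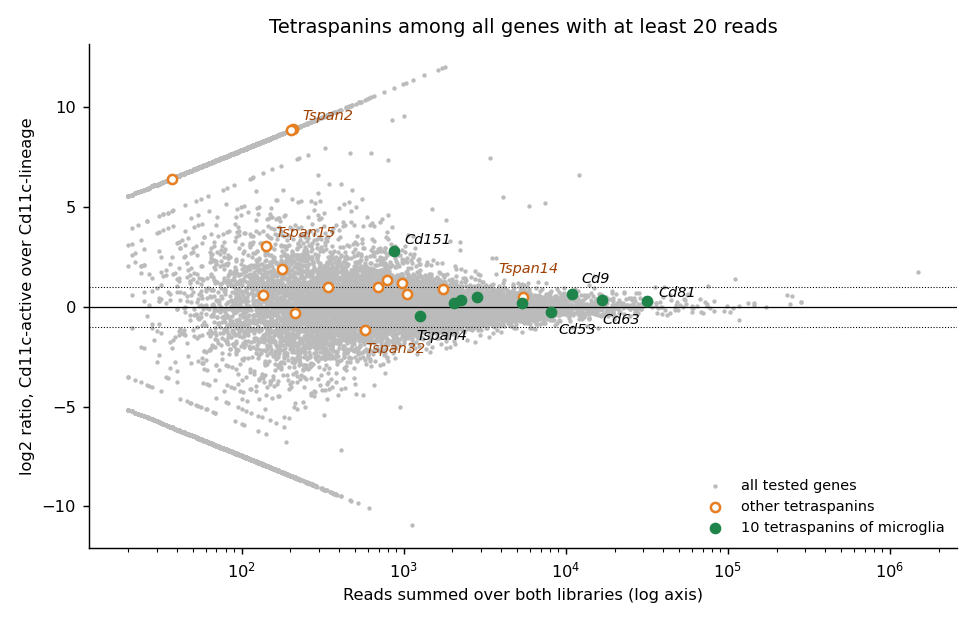
Log2 ratio, Cd11c-active over Cd11c-lineage, against reads summed over both libraries (log axis) for all 13037 genes with at least 20 reads (grey), the 10 tetraspanins of microglia (green) and the 15 other listed tetraspanins (orange rings). The grey cloud narrows as reads rise, 9 of the 10 lie inside the dotted 2-fold lines, and the straight edges are genes with 0 reads in either library.

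Partners of the tetraspanins were divided in direction. Of 18 listed partners 15 were in the table, with 7 above and 8 below 0 and a median of -0.12. *Adam10*, the protease that TspanC8 tetraspanins carry, had 7504 and 10277 reads and a ratio of -0.27 (-0.31 to -0.22). The related sheddase *Adam17* had 3917 and 6495 reads (-0.54). The integrin genes *Itgb1* (9421 and 11641 reads) and *Itga6* (9244 and 12505), whose products join in the laminin receptor that CD151 binds, had ratios of -0.12 and -0.25. *Ptgfrn*, whose product associates with CD9 and CD81, had 2088 and 1575 reads and a ratio of 0.59 (0.50 to 0.69). *Clec7a*, the receptor Dectin-1, which CD37 binds, had 1179 and 769 reads (0.80). Of the 15 partners 4 were past 2-fold, *Hbegf* (22 and 0 reads), *Ifitm2* (87 and 0) and *Ifitm3* (33 and 0) higher and *Itgb7* (0 and 52) lower, against 44.9% of all tested genes. Of the 7 with at least 1000 reads 0 were past 2-fold, against 9.57% of all genes at that depth.

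Genes of exosome formation and release, the pathway in which CD63 cargo travels, were also divided. Of 14 with at least 20 reads, 6 were above and 8 below 0, with a median of -0.11, and 1, *Stam2* (254 and 742 reads), was past 2-fold lower, against 21.6% of all tested genes. Of the 12 with at least 1000 reads 0 were past 2-fold, against 9.57% of all genes at that depth. *Sdcbp*, the syntenin gene whose product links CD63 to vesicle budding, had 6734 and 8442 reads and a ratio of -0.14. *Pdcd6ip*, the gene of the syntenin partner ALIX, had 3179 and 3316 reads (0.13). The membrane scission subunit *Chmp4b* had 2956 and 2168 reads (0.63), and *Arf6* 2066 and 1994 (0.24). The GTPase genes *Rab27a* and *Rab35*, which act in exosome release, had ratios of -0.59 and -0.30. The summed reads of this list gave 0.02 (-0.004 to 0.05), against 0.33 for *Cd63*.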

How the data were processed

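RNA of 2 sorted populations, 1 library each, was sequenced after ribosomal RNA depletion with a stranded kit, per the labels' protocols. The authors deposited raw counts per gene as whole numbers, together with their own log2 fold change and log2 mean CPM, per the file headers. The deposited log2 values were not used for any result. The submitters' processing notes name cutadapt 3.5, STAR 2.7.9a, featureCounts 1.6.3, edgeR 4.0.16 and GRCm39. The annotation release, the strand setting and the handling of duplicates are not given in the sources used here, so reads where genes overlap may be shared. No listed gene had fewer than 6 reads in all, and 0 columns were unmapped.

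Library sizes were scaled with TMM in edgeR 4.0.16 under R 4.3.3 (factors 0.954 and 1.05). Log2 ratios were taken with 0.5 reads added per library, with exact Clopper-Pearson 95% intervals on reads, and exact Poisson intervals for levels. Genes were kept from 20 summed reads on, and past 2-fold means that the absolute log2 ratio reached 1. As each group has 1 library, no residual degrees of freedom remain, so no test was made and no likeness between genes was computed. A count of 0 allows 3 reads, which is 0.243 CPM (Cd11c-active) and 0.214 CPM (Cd11c-lineage). RPKM used the union of exons from GENCODE for GRCm38, matched by gene ID for 13499 genes (99.6%), all 10 members included; the authors' build differs, so lengths are approximate. Sequences came from RefSeq (GRCm38.p6), where all 10 members matched by symbol. Other RefSeq data gave gene neighbours and overlapping genes only.

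The members and lists were chosen with earlier results of these data known. Named outside the members were the 6 genes with the most reads in each list of other tetraspanins, partners and vesicle genes, any past 2-fold with at least 1000 reads, and markers with the most reads or at 0. Most reads here means summed over both libraries. *Cdh5*, *Kdr*, *C1qa*, *P2ry12*, *Rbpms*, *Stam2*, *Prph2*, *Rom1*, *Slc1a3*, *Sox9*, *Hbegf*, *Ifitm2*, *Ifitm3*, *Itgb7* and the B cell genes were named after their values were seen. The ratio, call and interval steps were tested on simulated data with Poisson counting error only. That checks the computation and not the wider spread between these libraries. Alternatives were library totals, median-of-ratios size factors, TMM without structural RNA genes, a prior of 2 reads, other read minimums, removal of trends and scaling to the microglial markers. Tools were scipy 1.17.1 (intervals), statsmodels 0.14.6 (trends) and matplotlib 3.10.9 (figures) in Python 3.11.15.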

Additional observations from a re-analysis of the deposited data

How the results depend on the processing

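*Cd151* was the member past 2-fold in every alternative run except the minimum of 1000 reads, which leaves it out. At that minimum 0 of 9 members and 442 of 4619 genes (9.57%) were past 2-fold. The broadly expressed sum, 0.38, was 0.24 under library totals, 0.35 at the minimum of 1000 reads, 0.35 with the abundance trend removed and 0.44 without *Cd81*. The leukocyte-restricted sum, -0.09, was -0.22 under library totals and 0.18 without *Cd53*, so its sign rests on that gene. Alternatives chosen after seeing the data gave -0.22 and 0.18 with the trend of length and GC content removed, and -0.20 and 0.26 scaled to the microglial markers, for the leukocyte-restricted and the broadly expressed sum. Among single members *Cd37* alone changed sign, and of the other 9 *Cd81* ranged from 0.10 to 0.30, *Cd63* from 0.12 to 0.33, *Cd82* from 0.21 to 0.49, *Tspan3* from 0.04 to 0.20, *Tspan4* from -0.85 to -0.47, *Tspan7* from 0.18 to 0.55, *Cd9* from 0.44 to 0.66, *Cd53* from -0.40 to -0.26 and *Cd151* from 2.55 to 2.79. No paired analysis was possible because each group has 1 library. At the depth of *Cd151* (871 reads in all) the robust SD between these libraries is 0.96 on the log2 scale. It mixes differences between the populations with noise, and without replicates these cannot be told apart.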
